A study of Saccharomyces cerevisiae with 27 samples.

Results

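The genes described here encode the sensors and kinases of the high-osmolarity glycerol (HOG) pathway of budding yeast, chosen by name: SLN1, YPD1, SSK1, SSK2, SSK22, SHO1, OPY2, STE11, PBS2 and HOG1. They are 10 of the 6746 genes in the count table, and all 10 passed the filter on low counts that left 6209 genes for testing. The study asked how histone H4 residues contribute to transcription upon stress, and measured poly(A) mRNA by RNA-seq in 27 libraries, with 3 replicates in each of 9 groups. Wild type was sampled without stress, upon osmostress (0.4 M NaCl for 15 min) and upon heat (39°C for 10 min). H4-S47D, in which a serine of histone H4 is replaced by aspartate, was sampled without stress and upon osmostress, and H4-T30A and H4-T30D, with alanine or aspartate in place of a threonine, without stress and upon heat. All cultures grew to log phase in YPD medium at 30°C, and every comparison with unstressed wild type used the same 3 libraries. All strains, wild type included, are haploid MATa derivatives of BY4741 with the deletions ura3Δ0, leu2Δ0, met15Δ0, lys2Δ0, his3Δ200 and trp1Δ63, and with can1::MFA1pr-HIS3. In all of them the hht1-hhf1 locus was replaced by NatMX4 and the hht2-hhf2 locus by an HHTS-HHFS cassette marked with URA3, so the H3 and H4 of the cell, wild type or mutant, come from that cassette. The labels do not say how many independent strain isolates stand behind a genotype.

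The HOG pathway carries the signal of high external osmolarity to the MAP kinase Hog1, and 2 branches feed it through the MAP kinase kinase Pbs2. In the Sln1 branch the sensor histidine kinase Sln1 passes phosphate through Ypd1 to the response regulator Ssk1, and unphosphorylated Ssk1 activates the related MAP kinase kinase kinases Ssk2 and Ssk22. In the Sho1 branch the membrane protein Sho1, with mucin-like sensors and the membrane anchor Opy2, brings Ste11, another MAP kinase kinase kinase, to Pbs2. The signal travels by phosphorylation, which these libraries do not measure; the values below are mRNA levels.

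In the R64 annotation each of the 10 genes is 1 coding exon, and none overlaps another annotated gene. Of the Sln1 branch, SLN1 (YIL147C) lies at chrIX:69791-73453, YPD1 (YDL235C) at chrIV:33415-33918, SSK1 (YLR006C) at chrXII:161755-163893, SSK2 (YNR031C) at chrXIV:680694-685433 and SSK22 (YCR073C) at chrIII:242588-246583, all on the minus strand. Of the Sho1 branch, SHO1 (YER118C) lies at chrV:397952-399055 and OPY2 (YPR075C) at chrXVI:695737-696819 on the minus strand, and STE11 (YLR362W) at chrXII:849866-852019 on the plus strand. Of the shared kinases, PBS2 (YJL128C) lies at chrX:178097-180103 on the minus strand and HOG1 (YLR113W) at chrXII:371620-372927 on the plus strand. The windows from 250 bases before to 50 bases after the first base of the start codon are shown for SSK1, the member that rose most upon stress, SHO1, the member that fell most, and HOG1, the kinase at the end of the cascade, with any searched motif in capitals. They lie at chrXII:163844-164143, minus strand, chrV:399006-399305, minus strand, and chrXII:371370-371669, plus strand, and are written 5′ to 3′ along the gene.
SSK1: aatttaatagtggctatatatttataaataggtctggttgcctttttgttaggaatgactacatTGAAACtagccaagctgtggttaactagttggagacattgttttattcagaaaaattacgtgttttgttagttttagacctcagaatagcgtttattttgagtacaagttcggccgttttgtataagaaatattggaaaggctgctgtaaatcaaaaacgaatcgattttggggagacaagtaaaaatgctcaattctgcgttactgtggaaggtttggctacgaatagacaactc
SHO1: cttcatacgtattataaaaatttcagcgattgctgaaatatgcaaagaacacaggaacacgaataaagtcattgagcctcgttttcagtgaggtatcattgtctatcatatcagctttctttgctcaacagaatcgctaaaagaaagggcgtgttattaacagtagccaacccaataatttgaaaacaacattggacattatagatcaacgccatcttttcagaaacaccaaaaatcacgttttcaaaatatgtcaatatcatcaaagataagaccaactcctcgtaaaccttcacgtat
HOG1: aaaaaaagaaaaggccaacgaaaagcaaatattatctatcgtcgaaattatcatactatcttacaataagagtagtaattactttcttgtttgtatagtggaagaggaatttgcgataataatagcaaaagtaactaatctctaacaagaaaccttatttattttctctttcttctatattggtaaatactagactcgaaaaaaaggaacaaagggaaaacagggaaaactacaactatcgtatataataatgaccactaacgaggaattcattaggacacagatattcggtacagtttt
The capitals in SSK1 are a match to the pheromone response element TGAAAC, the site bound by Ste12, which began 186 bases before the start codon. On either strand, this element was found in 3 of the 10 member windows (SSK1, SSK2 and PBS2) and in 19.9% of the 6001 windows of all protein-coding genes. The stress response element AGGGG, bound by Msn2 and Msn4, was found in 0 of the 10 and in 21.6% of all windows. A paired heat shock element, GAANNTTC or TTCNNGAA, the arrangement bound by Hsf1, was found in 1 of the 10, OPY2, and in 22.6% of all windows. The SHO1 and HOG1 windows held none of these motifs.

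The libraries held 10212777 to 19503694 assigned counts, with a median of 14662715, and a member had between 125 and 7742 counts in a library. The MATa genes MFA1, MFA2, STE2 and BAR1 summed to between 4080 and 30824 counts per library, and the MATalpha genes MFALPHA1, MFALPHA2 and STE3 to between 107 and 512. The H4 substitutions cannot be seen in gene counts. The 6 libraries labelled H4-S47D held 2449 to 5685 counts for TRP1, against 1 to 55 in the other 21 libraries, although the labels give trp1Δ63 for every strain; the H4 allele and this difference cannot be told apart in comparisons with these libraries. In 3 libraries there were counts at LEU2, LYS2 and MET17 (the gene of the met15Δ0 deletion): 132 in replicate 3 of heat-stressed wild type, 124 in replicate 1 of osmostressed H4-S47D and 39 in replicate 2 of unstressed H4-T30D, against at most 4 in the other 24. Replicate 3 of heat-stressed wild type also held 1361 counts of the osmostress gene STL1, against 55 and 46 in the other heat-stressed wild-type libraries. Where these counts come from was not tested, and results that change without these libraries are given with and without them.

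HOG1 was the most abundant member mRNA per length in all 9 groups, and SSK2 and SSK22 held ranks 9 and 10 in all of them. Levels are counts per 1000000 counts of tested genes after scaling (CPM), and between genes they are compared per kb of coding length. In unstressed wild type HOG1 stood at 218 ± 13.4 CPM per kb (SD, n = 3), OPY2 at 129 ± 13.8, YPD1 at 80.5 ± 2.17 and SHO1 at 60.4 ± 5.08. Thus the mRNA of the last kinase of the cascade stood above that of the sensor Sho1 and of the phosphotransfer protein. PBS2 followed at 36.3 ± 2.88 CPM per kb, SLN1 at 22.4 ± 2.74, SSK1 at 18.0 ± 1.09 and STE11 at 11.3 ± 0.559. The related kinase genes SSK22 and SSK2 were last, at 5.04 ± 0.509 and 5.03 ± 0.915 CPM per kb, and were the only neighbours in this order whose libraries overlapped. Stress rearranged the middle of the order: SHO1 held rank 4 without stress and rank 6 upon osmostress (25.2 ± 1.94 CPM per kb) and upon heat (17.4 ± 1.44), whereas SSK1 moved from rank 7 to rank 4 upon osmostress (38.2 ± 1.09) and to rank 5 upon heat (52.5 ± 1.86). SSK22 stood at 2.46 ± 0.437 CPM per kb upon osmostress, below SSK2 at 5.79 ± 0.88 with no overlap between their libraries.

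**Figure D1:**
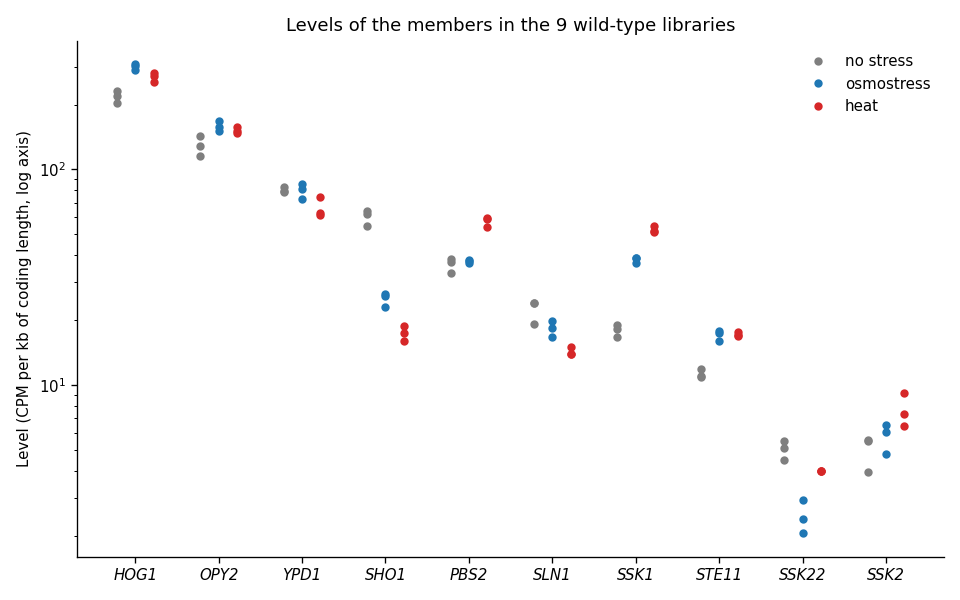
Levels of the 10 members in the 9 wild-type libraries, as CPM per kb of coding length on a log axis, with 1 point per library and a colour per condition. HOG1 stands above OPY2 in every condition, SHO1 falls from 60.4 to 25.2 and 17.4 CPM per kb, and SSK1 rises from 18.0 to 38.2 and 52.5.

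Upon osmostress in wild type, 4 of the 10 members rose (SSK1, STE11, HOG1 and OPY2) and 3 fell (SHO1, SSK22 and SLN1), while over all genes tested 40.3% rose and 36.2% fell. The members therefore changed in about the proportions of the whole table. The largest rise was that of the response regulator gene SSK1 (2.13-fold) and the largest fall that of the sensor gene SHO1 (2.40-fold). Both directions occurred in each branch: SSK22 of the Sln1 branch fell 2.04-fold and STE11 of the Sho1 branch rose 1.52-fold. On library totals alone, without scaling factors, 7 members rose and 2 fell, against 50.5% and 24.6% of all genes. Since the libraries were made from whole cultures, a change in the amount of an mRNA per cell and a change in the share of cells that make it cannot be told apart.

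In the Sln1 branch, the level of SSK1 was 40.5, 35.9 and 38.9 CPM in the 3 unstressed wild-type libraries and 83.4, 82.7 and 79.1 CPM in the osmostressed ones. Every osmostressed library stood above every unstressed one, and the log2 change was 1.09 ± 0.067 (SE), with an adjusted p of 2.74e-15. SSK22, for the second kinase that Ssk1 activates, went the other way: 20.4, 22.03 and 18.0 CPM without stress and 11.7, 8.23 and 9.59 CPM upon osmostress. These libraries did not overlap either, and SSK22 fell by 1.03 ± 0.13 on the log2 scale (adjusted p = 1.70e-08). Its relative SSK2 had 26.2, 26.5 and 18.8 CPM without stress and 28.6, 30.9 and 22.8 CPM upon osmostress, which overlap; its log2 change was 0.20, with a 95% interval from -0.08 to 0.47 and an adjusted p of 0.183. SLN1, the sensor of the branch, had 88.2, 87.6 and 70.5 CPM without stress and 67.0, 72.7 and 61.4 CPM upon osmostress. SLN1 fell by 0.30 ± 0.087 on the log2 scale (adjusted p = 0.00322), although the lowest unstressed library lay within the range of the osmostressed ones, and on library totals alone the change was -0.02 with an adjusted p of 0.863. YPD1, for the phosphotransfer protein between Sln1 and Ssk1, stood at 40.6 ± 1.09 CPM without stress and 40.3 ± 3.12 CPM upon osmostress, a log2 change of -0.01 with a 95% interval from -0.17 to 0.16; on library totals alone it was 0.27, with an adjusted p of 0.0306.

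In the Sho1 branch, SHO1 had 71.1, 68.6 and 60.4 CPM without stress and 28.7, 25.3 and 29.3 CPM upon osmostress. All osmostressed libraries stood below all unstressed ones, and SHO1 fell by 1.26 ± 0.078 on the log2 scale. It was the only member to pass the test for a change past 2-fold (adjusted p = 0.000891), in which 12.8% of all genes tested were higher and 12.5% lower; without replicate 1 of unstressed or replicate 3 of osmostressed wild type, 2 members passed it. STE11, for the MAP kinase kinase kinase of this branch, went from 23.6, 25.7 and 23.6 CPM to 37.7, 38.4 and 34.6 CPM, a log2 change of 0.60 ± 0.075 (adjusted p = 2.01e-08). OPY2, the membrane anchor, went from 125, 138.5 and 154.8 CPM to 169.9, 164 and 182.2 CPM. It rose by 0.30 ± 0.081 on the log2 scale (adjusted p = 0.00131), so that within this branch the kinase and anchor mRNAs rose while that of Sho1 fell.

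Of the shared kinases, HOG1 rose and PBS2 did not pass the test. HOG1 had 287.6, 266.6 and 301.5 CPM without stress and 380.2, 394.3 and 403.2 CPM upon osmostress, with no overlap, and its log2 change was 0.46 ± 0.066 (adjusted p = 3.18e-07). PBS2 had 75.0, 66.3 and 77.3 CPM without stress and 73.9, 76.6 and 75.9 CPM upon osmostress. Its log2 change was 0.05, with a 95% interval from -0.11 to 0.22 and an adjusted p of 0.569; on library totals alone it was 0.33, with an adjusted p of 0.000541.

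**Figure D2:**
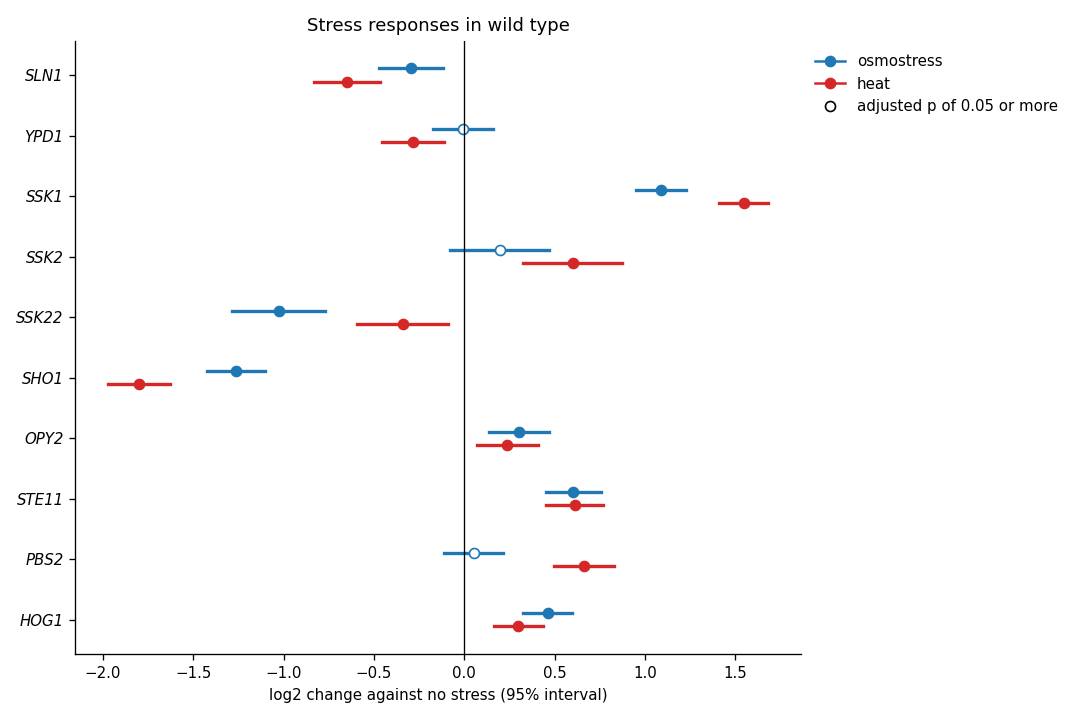
Log2 change of each member upon osmostress and upon heat in wild type against no stress, with 95% intervals from the edgeR fit (3 libraries per group) and open points where the adjusted p was 0.05 or more. SHO1 lies at -1.26 and -1.80 and SSK1 at 1.09 and 1.55, and PBS2 lies near 0 upon osmostress (0.05) and at 0.66 upon heat.

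Upon heat in wild type all 10 members passed the test: SSK1, PBS2, STE11, SSK2, HOG1 and OPY2 rose and SHO1, SLN1, SSK22 and YPD1 fell. Over all genes tested 41.7% rose and 36.4% fell. SSK1 and SHO1 again changed most and were the members past 2-fold, a test in which 15.8% of all genes were higher and 15.4% lower. SSK1 reached 116.9, 109.7 and 110.4 CPM, 2.92-fold over the unstressed libraries (log2 change 1.55 ± 0.067, adjusted p for a change past 2-fold = 1.49e-09). SHO1 dropped to 20.8, 17.6 and 19.2 CPM, 3.48-fold below the unstressed libraries (log2 change -1.80 ± 0.083, adjusted p for a change past 2-fold = 5.37e-11). Neither gene had a heat-stressed library within the range of the unstressed ones.

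The other heat responses were smaller. PBS2 rose to 119.3, 117.8 and 108.8 CPM (log2 change 0.66 ± 0.08, adjusted p = 1.13e-08), and STE11 to 36.9, 38.0 and 36.4 CPM (0.61 ± 0.076, adjusted p = 1.95e-08). SSK2 rose to 30.6, 35.0 and 43.6 CPM (0.60 ± 0.13, adjusted p = 0.00019), its highest value being replicate 3, a library with counts at deleted loci. All 3 genes encode kinases, and in each of them the heat-stressed libraries lay above every unstressed one. HOG1 rose by 0.30 ± 0.067 to 354.4, 366.9 and 331.9 CPM (adjusted p = 0.000172). OPY2 rose by 0.24 ± 0.082 to 163.3, 170.1 and 159.3 CPM (adjusted p = 0.00967), a call that was lost without replicate 1 of unstressed wild type (log2 change 0.16, adjusted p = 0.0872), with relative log expression scaling (0.18, 0.0671), with DESeq2 (0.18, 0.074) and with only the libraries compared (0.16, 0.159). Thus of the 5 genes for kinases of the MAP kinase cascade, all but SSK22 rose upon heat. Among the genes that fell, SLN1 dropped by 0.65 ± 0.09 to 51.2, 51.3 and 55.2 CPM (adjusted p = 1.45e-07). SSK22 fell by 0.34 ± 0.12 to 16.0, 15.9 and 15.9 CPM (adjusted p = 0.014; without replicate 2 of unstressed wild type, log2 change -0.27 and adjusted p = 0.0726). YPD1 fell by 0.28 ± 0.083 to 30.9, 31.5 and 37.6 CPM (adjusted p = 0.00283), and so the mRNAs of the sensor and of the phosphotransfer protein were both lower upon heat.

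Set directly against each other in wild type, heat and osmostress differed for 8 of the 10 members, 4 higher and 4 lower upon heat, against 29.0% of all genes higher and 34.0% lower. On library totals alone 2 members were higher and 6 lower, against 13.9% and 53.5% of all genes. PBS2, which did not pass the test upon osmostress, was 0.61 ± 0.08 higher upon heat on the log2 scale (adjusted p = 1.11e-07). SSK22 was 0.68 ± 0.13 higher upon heat (adjusted p = 4.54e-05), its fall being larger upon osmostress. SSK1 was 0.46 ± 0.064 higher (adjusted p = 3.39e-07; 0.13 with an adjusted p of 0.164 on library totals alone), and SHO1 gave a log2 difference of -0.54 ± 0.086 (adjusted p = 3.65e-06). SLN1 and YPD1 were also lower upon heat, with log2 differences of -0.35 and -0.28 (adjusted p = 0.0012 and 0.00465). Those 6 genes passed also without the 3 libraries that held counts at deleted loci, and SSK2 (0.23, adjusted p = 0.164) and HOG1 (-0.15, adjusted p = 0.0898) did not. With all libraries SSK2 was 0.40 ± 0.13 higher upon heat (adjusted p = 0.00931), but 0.25 higher with an adjusted p of 0.116 without replicate 3 of heat-stressed wild type and 0.26 higher with an adjusted p of 0.109 without replicate 3 of osmostressed wild type. HOG1 differed by -0.16 ± 0.066 (adjusted p = 0.0358), and by -0.12 with an adjusted p of 0.141 without replicate 3 of heat-stressed wild type. Without replicate 1 of that group the adjusted p was 0.0567. The HOG1 call was also lost with relative log expression scaling (adjusted p = 0.0577) and with only the libraries compared (-0.15, 0.0758). STE11 gave a difference of 0.01, with a 95% interval from -0.14 to 0.16, and OPY2 one of -0.07, with an interval from -0.23 to 0.10; on library totals alone both were lower upon heat (-0.32 and -0.39).

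Across all 9 groups, 3 members separated the 15 stressed from the 12 unstressed libraries with no overlap, whatever the H4 allele. SSK1 lay between 35.0 and 40.5 CPM without stress and between 62.0 and 116.9 CPM with stress. STE11 lay between 22.3 and 30.4 CPM without stress and between 32.7 and 43.3 CPM with stress, and SHO1 between 59.8 and 75.4 CPM without and between 16.6 and 30.9 CPM with stress. Such a separation held for 18.3% of all genes tested with the stressed libraries higher and for 18.5% with them lower, so that it is common in this table. By mean level of SSK1 the groups fell in the order heat-stressed wild type (112 ± 3.97 CPM), H4-T30A (105 ± 6.73) and H4-T30D (84.9 ± 1.87), then osmostressed wild type (81.7 ± 2.33) and H4-S47D (67.0 ± 4.65), then the 4 unstressed groups from 38.4 ± 2.33 to 35.4 ± 0.599 CPM. In this order heat-stressed wild type overlapped H4-T30A, heat-stressed H4-T30D overlapped osmostressed wild type, and the unstressed groups overlapped each other. By SHO1 the order was the 4 unstressed groups (73.6 ± 1.6 to 63.1 ± 2.84 CPM), osmostressed H4-S47D and wild type (29.7 ± 1.92 and 27.8 ± 2.15) and the 3 heat-stressed groups (19.5 ± 0.72 to 17.9 ± 1.22), with overlaps only inside these sets. For HOG1 only the top group, osmostressed wild type at 392.6 ± 11.6 CPM, stood clear of its neighbour; every later neighbour overlapped, down to unstressed H4-T30A at 273.5 ± 5.4 CPM.

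**Figure D3:**
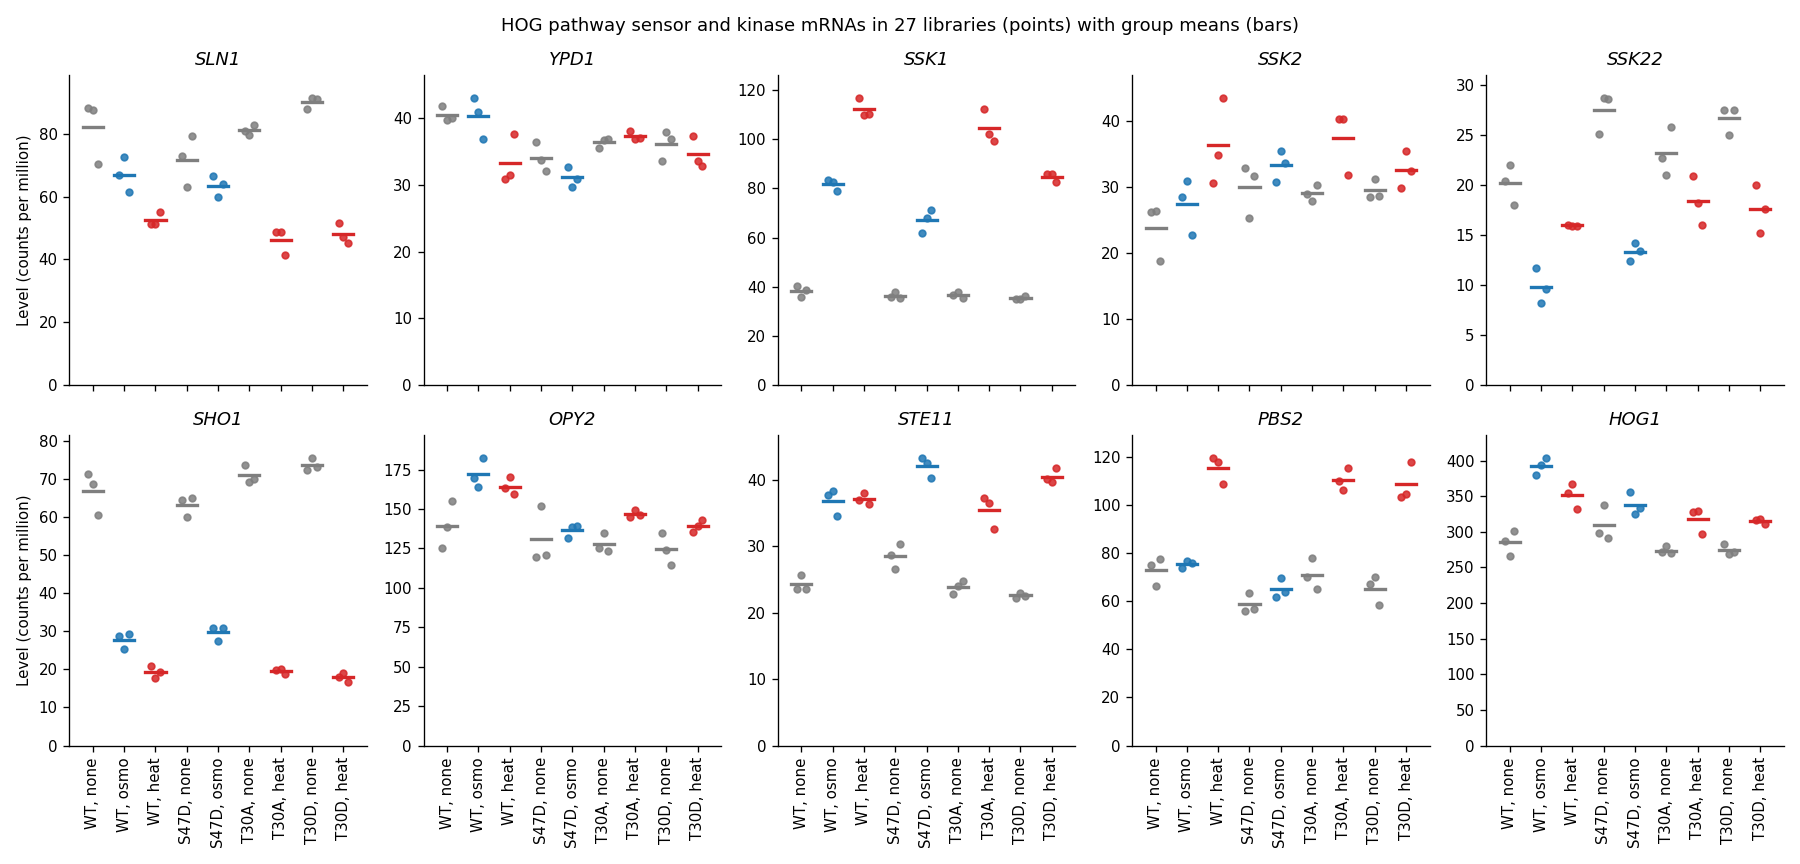
Level of each member (CPM, axes starting at 0) in all 27 libraries, 1 point each, with a bar at the mean of the 3 replicates; grey stands for no stress, blue for osmostress and red for heat. SSK1, STE11 and SHO1 show no overlap between stressed and unstressed libraries, and the range of YPD1 is narrow (29.8 to 43.1 CPM).

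The libraries labelled H4-S47D differed from wild type without stress in 5 members. SSK22 (log2 difference 0.44 ± 0.12, adjusted p = 0.00203), SSK2 (0.32 ± 0.13, 0.0421) and STE11 (0.24 ± 0.075, 0.0101), the MAP kinase kinase kinase genes of both branches, were higher, and PBS2 (-0.31 ± 0.081, 0.00211) and YPD1 (-0.25 ± 0.081, 0.0101) were lower. Over all genes, 26.6% were higher and 25.3% lower in this comparison. SSK22 had 25.1, 28.7 and 28.6 CPM, above all wild-type libraries, and PBS2 56.0, 63.4 and 56.9 CPM, below all of them. The call of SSK2 rested on the libraries and the scaling used: it was lost without replicate 3 of unstressed wild type (log2 difference 0.19, adjusted p = 0.25), without replicate 1 or 3 of H4-S47D (adjusted p = 0.169 and 0.132) and with relative log expression scaling (0.0766). That of STE11 was lost without replicate 3 of H4-S47D (0.18, adjusted p = 0.0747). With only the 6 libraries compared, 1 member passed the test, and the share of all genes that passed in this smaller fit was not counted. On library totals alone 4 members were higher and 0 lower, against 37.4% and 10.8% of all genes. SLN1 was not called (-0.20, adjusted p = 0.0563), but was lower with relative log expression scaling (-0.25, adjusted p = 0.0132), with DESeq2 (-0.25, 0.0112) and without replicate 3 of unstressed wild type (-0.29, 0.00559) or of H4-S47D (-0.29, 0.0117). SSK1, SHO1 and HOG1 did not pass: SSK1 gave -0.08, with a 95% interval from -0.22 to 0.06, SHO1 -0.08, from -0.23 to 0.07, and HOG1 0.12, from -0.02 to 0.25.

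Upon osmostress the libraries labelled H4-S47D kept the largest member changes of wild type. Within this genotype SSK1 and STE11 rose and SHO1 and SSK22 fell, 4 of 10 members, and over all genes 35.9% rose and 36.5% fell. SLN1, HOG1 and OPY2, which passed in wild type, did not pass here. For SLN1 the difference of the responses was 0.12, with an adjusted p of 0.491. SSK1 went from 35.7, 37.8 and 35.3 to 62.0, 67.8 and 71.1 CPM (log2 change 0.89 ± 0.066), SHO1 from 64.5, 59.8 and 65.0 to 30.8, 27.5 and 30.9 CPM (-1.09 ± 0.077), SSK22 to 12.4, 14.2 and 13.4 CPM (-1.04 ± 0.12) and STE11 from 28.8, 26.6 and 30.4 to 43.3, 42.6 and 40.3 CPM (0.55 ± 0.073). For HOG1 the response was smaller than in wild type: 298.5, 338.1 and 291.9 CPM without stress and 355.5, 324.4 and 332.7 CPM upon osmostress, groups that overlap, with a log2 change of 0.12 ± 0.066 (adjusted p = 0.0909) against 0.46 in wild type. The difference of the responses was -0.34 ± 0.094 (adjusted p = 0.00643), the only one of the 10 past the test, while 12.9% of all genes had a higher and 20.7% a lower response than in wild type. The call on HOG1 held without any single library (-0.38 to -0.27), and was lost when only the 12 libraries compared were fitted (-0.26, adjusted p = 0.116). OPY2, whose log2 change was 0.06 here and 0.30 in wild type, gave a difference of -0.24, with a 95% interval from -0.48 to -0.01 and an adjusted p of 0.106 (-0.32 and 0.0267 without replicate 3 of unstressed wild type). SSK1 gave -0.20, from -0.39 to -0.01, with an adjusted p of 0.099.

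Compared upon osmostress itself, 7 members differed between the libraries labelled H4-S47D and wild type, against 15.8% of all genes higher and 24.0% lower. YPD1 (log2 difference -0.38 ± 0.081, adjusted p = 0.000509), OPY2 (-0.33 ± 0.081, 0.00185), SSK1 (-0.29 ± 0.064, 0.000829), HOG1 (-0.22 ± 0.066, 0.01) and PBS2 (-0.21 ± 0.081, 0.0369) were lower, and SSK22 (0.43 ± 0.13, 0.00934) and STE11 (0.19 ± 0.072, 0.0392) higher. This split depended on the scaling: on library totals alone 4 members were higher and 0 lower, against 35.9% and 5.23% of all genes, and HOG1 and PBS2 turned to 0.04 and 0.04. With the scaling factors the libraries of the 2 groups did not overlap in any of the 7. How common this was over all genes was not counted. It is no separate support, since the 7 were already called on the same libraries. Of these calls, HOG1 was lost without replicate 2 of osmostressed H4-S47D (-0.18, adjusted p = 0.0617) and SSK22 without replicate 2 of osmostressed wild type (0.32, 0.0719). PBS2 was lost without each of 5 of the 6 libraries in turn and STE11 without each of 4. PBS2 was also lost with relative log expression scaling (adjusted p = 0.0545), without the filter (0.0506) and with DESeq2 (0.0512). With only the libraries compared PBS2 (0.091) and HOG1 (0.0538) were lost. SSK2 was not called (0.28, adjusted p = 0.0888). It was higher with only the libraries compared (0.34, 0.0133), on library totals (0.53, 0.0181) and without replicate 2 of osmostressed wild type (0.37, 0.0492). Without the 3 libraries that held counts at deleted loci 5 members passed, PBS2 (-0.17, adjusted p = 0.14) and STE11 (0.17, adjusted p = 0.114) being lost. The share of all genes that passed in that fit was not counted.

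No member passed the test between H4-T30A and wild type, without stress, upon heat or in the difference of the heat responses. At an unadjusted p under 0.05, 1 of the 10 members passed with edgeR in each of these 3 comparisons. The share of all genes at that threshold was not counted. After adjustment edgeR gave 0 calls among the 10, and DESeq2 gave 0. Few genes of the whole table passed either: 0.612% were higher and 0.773% lower without stress, 2.09% and 4.54% upon heat, and 0.177% and 0.306% had a higher or lower response. Within H4-T30A 6 members rose upon heat and 3 fell, against 40.1% and 37.2% of all genes. SSK1 went from 36.6, 37.7 and 35.5 to 112.3, 102.3 and 99.5 CPM (log2 change 1.52 ± 0.067) and SHO1 from 73.5, 69.2 and 70.0 to 19.9, 20.0 and 18.7 CPM (-1.86 ± 0.082). The intervals bound the differences from wild type: that of the heat response ran from -0.22 to 0.16 on the log2 scale for SSK1, from -0.30 to 0.18 for SHO1 and from -0.28 to 0.11 for HOG1. The largest difference of responses was that of YPD1, which fell in wild type and had 35.5, 36.7 and 36.9 CPM without stress and 38.1, 36.9 and 37.0 CPM upon heat in H4-T30A (difference 0.32, 95% interval 0.08 to 0.56, adjusted p = 0.267).

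H4-T30D differed from wild type in SSK22 without stress and in SSK1 upon heat. Without stress SSK22 had 27.5, 25.0 and 27.5 CPM, above every wild-type library (log2 difference 0.40 ± 0.12, adjusted p = 0.00954), and was the only member past the test, against 16.3% of all genes higher and 15.3% lower. It was lost without replicate 3 of unstressed wild type (0.33, adjusted p = 0.0523), and 3 members passed with relative log expression scaling, 1 higher and 2 lower (13.3% and 20.8% of all genes), and 5, all higher, on library totals alone (33.6% and 4.12%). Upon heat SSK1 reached 86.0, 85.9 and 82.7 CPM, below each of the wild-type libraries, and differed from wild type by -0.40 ± 0.064 on the log2 scale (adjusted p = 5.74e-05), the only member past the test against 5.01% of all genes higher and 8.70% lower. That call held without any single library and under all 7 other settings. The response of SSK1, from 35.1, 35.0 and 36.0 CPM without stress, was 1.26 ± 0.067 on the log2 scale against 1.55 in wild type. The difference of the responses, -0.28 ± 0.094, passed narrowly (adjusted p = 0.0417), among 4.40% of all genes with a higher and 9.62% with a lower response. It was lost without any 1 of 10 of the 12 libraries compared (adjusted p 0.0566 to 0.147), with relative log expression scaling (-0.21, 0.162), with DESeq2 (-0.21, 0.153) and with only the libraries compared (-0.20, 0.234). Without the 3 libraries that held counts at deleted loci SSK1 was lost (-0.27, adjusted p = 0.0909) and YPD1 was the only member past the test (0.38, 0.0405; with all libraries 0.23, 0.202). With relative log expression scaling STE11 was the only member past this test, with 0.31 and an adjusted p of 0.0477. Within H4-T30D 4 members rose upon heat (SSK1, STE11, PBS2 and HOG1) and 3 fell (SHO1, SLN1 and SSK22), against 37.5% of all genes in each direction. SHO1 fell 4.11-fold, from 72.3, 75.4 and 73.1 to 17.9, 19.1 and 16.6 CPM, which gave the largest change of any member here (log2 change -2.04 ± 0.083); its difference from the wild-type response was -0.24, with a 95% interval from -0.48 to 0.00 and an adjusted p of 0.178.

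**Figure D4:**
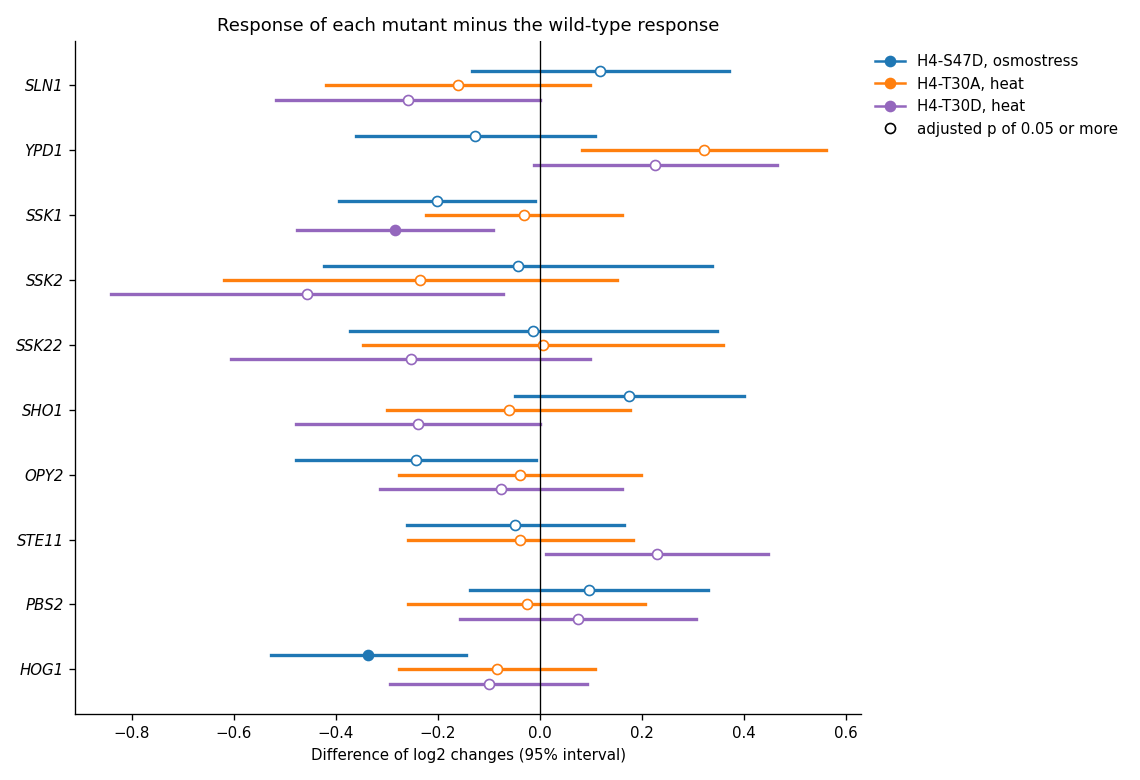
Log2 response of each mutant minus the response of wild type to the same stress, for the 10 members, with 95% intervals from the edgeR fit and filled points where the adjusted p was under 0.05. The filled points are HOG1 in H4-S47D upon osmostress (-0.34) and SSK1 in H4-T30D upon heat (-0.28).

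The other genes of the pathway gave the context of these values in wild type. The counts of each list below stand beside these shares of all genes tested. Upon osmostress 40.3% rose and 36.2% fell, and upon heat 41.7% rose and 36.4% fell. All 5 of the output genes counted here, which make glycerol, take it up or detoxify, rose past 2-fold upon osmostress, against 12.8% of all genes. Their median log2 change was 6.03 against 0.08 over all genes. The glycerol transporter gene STL1 rose by 11.90 ± 0.82 and the glycerol-3-phosphate dehydrogenase gene GPD1 by 6.29 ± 0.10. The members, with a median of 0.12, stayed far from this range. Upon heat 4 of the 5 rose and 1 fell, STL1 (4.99 ± 0.82; 55, 46 and 1361 counts) and GPD1 (3.51 ± 0.09) giving the largest changes. Without replicate 3 of heat-stressed wild type, which held the 1361 counts, the log2 change of STL1 was 1.72 ± 0.23 (adjusted p = 7.28e-08) and that of GPD1 3.52 ± 0.10, and again 4 rose and 1 fell. Of 6 genes for phosphatases and an adaptor that act on Hog1, 5 rose and 1 fell upon osmostress, with a median of 0.49, led by the tyrosine phosphatase gene PTP2 (1.35 ± 0.10) and PTC2, which fell by 0.85 ± 0.10. Upon heat 2 rose and 1 fell, and here PTP2 (1.52 ± 0.10) and PTP3, which dropped by 1.44 ± 0.13, went in opposite directions although both encode tyrosine phosphatases of Hog1. Of 9 genes that act upstream of Ste11 in the Sho1 branch, 2 rose and 4 fell upon osmostress, STE20, a p21-activated kinase, by -0.84 ± 0.071 and the mucin gene MSB2 by -0.60 ± 0.10, and 2 rose and 6 fell upon heat, MSB2 by -1.71 ± 0.11. Their median upon heat was -0.60, against 0.08 over all genes. Of 7 transcription factors and kinases downstream, 4 rose and 1 fell upon osmostress, with the zinc finger factor genes MSN2 (1.67 ± 0.087) and MSN4 (0.95 ± 0.073) in front, and 4 rose and 2 fell upon heat, led by the kinase gene RCK2 (2.83-fold, with an SE of 0.056 on the log2 scale) and MSN4 (log2 change 1.31 ± 0.073). Of 8 kinases of the other MAP kinase cascades, 5 rose and 2 fell upon osmostress and 3 rose and 3 fell upon heat. In both stresses the MAP kinase genes FUS3, of the mating cascade, and SLT2, of the cell wall cascade, changed most and in opposite directions: FUS3 by -1.11 ± 0.08 and -1.84 ± 0.086, SLT2 by 1.10 ± 0.059 and 1.67 ± 0.059. The values of HOG1 beside these were 0.46 and 0.30; differences between genes were not tested.

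Among the mutants, the output genes gave the following values. In the difference of the osmostress responses of H4-S47D and wild type, HOG1 was the only member past the test. Of the 5 output genes 3 were lower there and 0 higher, against 20.7% and 12.9% of all genes. Their median difference was -1.48 against -0.06 over all genes. The glycerol-3-phosphatase gene GPP2 gave -1.52 ± 0.11 and GPD1 -1.48 ± 0.12. Without stress 3 of the 5 were higher in H4-S47D and 1 lower, against 26.6% and 25.3% of all genes (GPP2 0.99, GPD1 0.90). Without replicate 3 of heat-stressed wild type 4 were higher. Compared upon osmostress itself 3 were lower and 0 higher, against 24.0% and 15.8% (GPD1 -0.58, GPP2 -0.53). In the difference of the heat responses of H4-T30D and wild type 3 of the 5 were lower too and 0 higher, against 9.62% and 4.40% of all genes, with a median of -1.08 against -0.06 over all genes (GPD1 -1.16 ± 0.12, GPP2 -1.08 ± 0.11). Without replicate 3 of heat-stressed wild type 3 were again lower and the median was -0.60. In unstressed H4-T30D 2 of the 5 were higher than in wild type and 0 lower, against 16.3% and 15.3% of all genes (GPP2 0.72, GPD1 0.62). Without that library 3 were higher. Compared upon heat itself 4 were lower and 0 higher, against 8.70% and 5.01%. Without that library 2 were lower (GPD1 -0.54, GPP2 -0.29). For H4-T30A none of the 5 differed from wild type in response, with a median of -0.16 against -0.04 over all genes (-0.07 without that library). Compared upon heat itself 3 were lower in H4-T30A and 0 higher, against 4.54% and 2.09% of all genes. Without that library 2 were lower (GRE2 -0.45, GPP2 -0.37). STL1 was not called in the H4-S47D difference (-2.19 ± 1.13, adjusted p = 0.137), but was lower without that library (-2.19 ± 0.21, adjusted p = 1.01e-09). That library is in none of the groups of this comparison, and the estimate stayed at -2.19 while the SE fell. The groups share 1 estimate of the spread in the fit. STL1 was also the gene gained in unstressed H4-S47D and H4-T30D, at 2.05 and 0.62 with and without that library.

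Over the 9 group means of log2 CPM, the gene outside the pathway list most like each member in its pattern was HAS1, an RNA helicase gene, for SHO1 (Pearson r = 0.9979), GRH1 for PBS2 (0.9944), the protein kinase gene FPK1 for SSK1 (0.9939), THI73 for SSK22 (0.9889), THI3 for SLN1 (0.9885), QCR8, for a subunit of respiratory complex III, for STE11 (0.9884), TMS1 for HOG1 (0.9831) and BCK2 for SSK2 (0.9781). OPY2 with QNS1 (0.9643) and YPD1 with PDA1, for a subunit of pyruvate dehydrogenase (0.9533), came last. The correlations are over 9 groups that share strains, stresses and libraries, and each is the highest among all genes tested. YPD1 had the narrowest range of group means (0.38 on the log2 scale), and SHO1 the widest (2.04). Among the members themselves the closest pair was SLN1 and SHO1 (0.9447), the sensor genes of the 2 branches.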

How the data were processed

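The authors deposited raw read counts per gene for 27 libraries. Per the labels and the study's methods, poly(A) libraries made with a stranded kit were aligned with TopHat2 2.1.0 to the yeast genome (sacCer3, R64), and uniquely mapped reads were counted with featureCounts 1.5.1; the strand setting of the count is not given in the sources used here, so antisense reads may be included. Here edgeR 4.0.16 (R 4.3.3) fitted 1 mean per group over all 27 libraries after filterByExpr (minimum count 10), which kept 6209 of 6746 genes, with TMM scaling. Quasi-likelihood tests, and glmTreat for changes past 2-fold, had their p-values adjusted over all genes tested (Benjamini-Hochberg), with calls at 0.05. CPM are counts per 1000000 counts of tested genes after scaling. Errors are SDs over n = 3, or SEs of log2 changes. The replicates are described as biological. Positions and windows came from RefSeq R64, in which 6025 of the IDs were found. The members and gene lists were chosen with earlier results of these data known. All 10 members are named, with, per list and comparison, at most the 2 genes with the largest called change, and the gene most like each member. Alternatives were other scalings (relative log expression, library totals), no filter, a replicate block, DESeq2 1.42.0, only the libraries compared, and each library left out; leaving out the 3 libraries with counts at deleted loci was added after seeing the data. A member had 125 to 7742 counts per library.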

Additional observations from a re-analysis of the deposited data

Results flagged for a closer look

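The osmostress response of HOG1 was smaller in the libraries labelled H4-S47D than in wild type, by -0.34 on the log2 scale (SE 0.094, adjusted p = 0.00643). It was singled out because the difference of the 2 responses was itself tested and passed. The call held without any single library, and was lost when only the libraries compared were fitted (-0.26, adjusted p = 0.116). The 6 H4-S47D libraries also differ from the rest in TRP1 counts, and strain and allele cannot be told apart.

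The heat response of SSK1 was smaller in H4-T30D than in wild type, by -0.28 on the log2 scale (SE 0.094, adjusted p = 0.0417), singled out for the same reason. The call was lost with relative log expression scaling (-0.21, adjusted p = 0.162), with DESeq2 (-0.21, 0.153) and with only the libraries compared (-0.20, 0.234). It was lost too when most of the libraries compared were left out singly. Among these was replicate 2 of unstressed H4-T30D, which held counts at deleted loci (-0.26, adjusted p = 0.105). The lower level of SSK1 in heat-stressed H4-T30D than in heat-stressed wild type passed the test also without the 3 libraries that held such counts.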

How the results depend on the processing

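Of 1740 recomputed values of the members, 1554 kept their direction and their side of the threshold, 88 changed sign with no call on either side, 65 lost a call, 28 gained one and 5 turned. Same-numbered replicates showed no consistent positive correlation: 54 such pairs correlated between -0.40 and 0.15 in their deviations from group means. Pairs with different numbers were not compared, so whether the numbers pair the samples was not settled. With a replicate block all 120 member values kept their call, the HOG1 difference between H4-S47D and wild type being -0.34 (adjusted p = 0.00838). Library totals alone, against TMM, moved the median of all genes by 0.27 upon osmostress and -0.33 between heat and osmostress in wild type, by 0.18, 0.11 and 0.20 for unstressed H4-S47D, H4-T30A and H4-T30D, by 0.25 and 0.12 for stressed H4-S47D and H4-T30A and by -0.12 in the H4-T30D response difference. With it, 26 values changed sign, 21 of them with no call on either side; the other 5 were YPD1 upon osmostress (0.27), STE11 between heat and osmostress (-0.32), HOG1 in unstressed H4-T30D (0.15) and PBS2 and HOG1 in osmostressed H4-S47D (0.042 and 0.036). Counts of members called moved as follows. Unstressed H4-S47D gave 5, and 1 with only the libraries compared. Unstressed H4-T30D gave 1, but 3 with relative log expression scaling or DESeq2 and 5 on library totals. The response difference of H4-S47D gave 1, and 0 with only the libraries compared. That of H4-T30D gave 1, but 2 on library totals and 0 with only the libraries compared. Osmostressed H4-S47D gave 7, and 4 on library totals. Leaving out single libraries gave 1 to 2 members past 2-fold upon osmostress, 0 to 2 in unstressed H4-T30D, 1 to 2 in the response difference of H4-S47D and 0 to 1 in that of H4-T30D. The cause of these changes was not tested, and the shares of all genes were not counted for the fits with fewer libraries. Without the 3 libraries with counts at deleted loci, chosen after seeing the data, 114 of 120 values kept their call. The lowest count of a member was 125; SSK2 and SSK22 had SEs of about 0.13 on the log2 scale, and the part of depth in this was not tested.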
